A study of Mus musculus with 6 samples.

Results

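The potassium channel genes of the mouse were examined for 5-hydroxymethylcytosine (5hmC), the base that TET enzymes make by oxidising 5-methylcytosine. The set holds the 94 protein-coding genes whose symbol starts with Kcn, of 21883 protein-coding genes on chromosomes 1 to 19, X and Y in the RefSeq table of GRCm38. DNA fragments of sonicated genomic DNA were captured with an antibody to 5hmC and sequenced, and the authors deposited 1 list of called peaks per library. For each gene, the bases under peaks (called length) were counted over its span and 5 kb at both ends, called the interval here. Symbols alone decided which genes belong to the set, but the set itself was chosen with earlier results of these data known.

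The cells were Kit-enriched bone marrow cells of C57BL/6 mice that carried Tet2fl/fl and CreER, a Cre recombinase switched on by 4-hydroxytamoxifen (4-OHT). All cultures had been transduced with a MigR1 retrovirus for AML1-ETO, the leukaemia fusion protein of the DNA-binding factor RUNX1 (AML1) with the corepressor ETO, and GFP. After serial replating in methylcellulose they were grown in suspension with SCF, IL-3 and IL-6. The flox group (genotype label Tet2fl/fl, 2 libraries) had received ethanol. The KO group (genotype label Tet2-/-, 2 libraries) had received 200 nM 4-OHT over 2 passages (4 days). Cells at passage 5 were sorted as immature myeloid cells, positive for GFP and CD16/32 and negative for CD11b and Gr1. The age of the mice, the number of animals and whether replicates came from separate cultures are not stated in the labels. P-values therefore measure the spread between these 4 libraries, which may be technical. The drug went to KO cultures alone, so what 4-OHT or Cre does by itself and what the loss of Tet2 does cannot be told apart. The IgG and input samples of the series were not analysed here.

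Potassium channels let potassium ions leave or enter the cell and set its membrane potential. The Kv channels open with voltage and end the action potential, and they assemble with auxiliary subunits that tune their gating and transport to the surface. Inward rectifiers (Kir, Kcnj genes) hold the resting potential, tandem-pore channels (K2P, Kcnk genes) carry background leak currents, and a further class opens on intracellular calcium or sodium. Most of these genes are best known from neurons and muscle. Some serve blood cells, such as Kcnn4, the calcium-activated channel of red cells, lymphocytes and macrophages, and Kcna3, a Kv channel of lymphocytes. Expression was not measured here, so whether any of these genes was silent in the cultures is unknown.

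The peak lists held 116539 to 122101 peaks covering 110.3 to 113.4 Mb, and the number of reads behind them is unknown. Tet2 itself, targeted in KO, had 1981 and 3509 called bp in flox, against 2432 and 2448 in KO. Which part is excised is not named in the labels, and the peaks do not check the deletion. Peaks of 5hmC are no measure of expression, so markers cannot check the sorted cell type. Among 20 genes of myeloid progenitors, 19 carried a peak in some library, as did all 8 neuronal marker genes and all 10 lymphoid and erythroid markers. Of all protein-coding genes, 77.1% did.

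Potassium channel genes carried more called 5hmC than protein-coding genes in general. The median over the 94 genes was 71.2 called bp per kb of interval as a mean of the 4 libraries (interquartile range 24.5 to 105), against 32.3 (4.59 to 69.8) over all genes. At least 1 library had called bases in 85 genes (90.4%, against 77.1% of all genes), and 77 (81.9%, against 57.0%) had called bases in every library. Of the 94 genes, 64 lay above the median of all genes and 23 in the top 10%. Kcn intervals were longer, with a median of 42.7 kb against 27.2 kb. Within length classes the medians were 78.3 against 17.2 bp per kb under 20 kb, 83.3 against 35.8 from 20 to 100 kb, and 43.1 against 37.0 over 100 kb. Most other gene lists were also dense. Medians were 102 bp per kb over 40 voltage-gated sodium and calcium channel genes and 68.2 over 10 HCN and CNG channel genes. They were 68.8 over 20 myeloid progenitor genes and 61.9 over 8 neuron markers, but 43.7 over 10 lymphoid and erythroid markers. These values describe the lists, and no test was made of them. Of the 94 intervals, 34 reached into another protein-coding gene, so some called bases may belong to a neighbour.

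The peaks at these genes were called to a similar extent in all libraries. Intervals held 630 and 623 peaks in flox and 657 and 678 in KO, and the authors' caller gave 49.7%, 49.4%, 48.9% and 49.6% of those peaks a score of 100 or more. The score is a rescaled negative logarithm of each peak's p-value, so higher means stronger, and no peak had less than 50. In the whole lists this share was 45.1% to 47.2%. Between pairs of libraries, 0.509 to 0.535 of called bases in Kcn intervals were shared (shared over total called bases). This share was 0.525 in the flox pair, 0.509 in the KO pair and 0.513 to 0.535 across genotypes. Over all protein-coding intervals it was 0.498 to 0.514. The order of the 85 genes with a peak was close between genotypes (Spearman rho of called bp per kb 0.936, flox mean against KO mean, across genes that share libraries). Within genotypes rho between single libraries was 0.920 in flox and 0.858 in KO. A value between means is not directly comparable with values between single libraries.

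**Figure D1:**
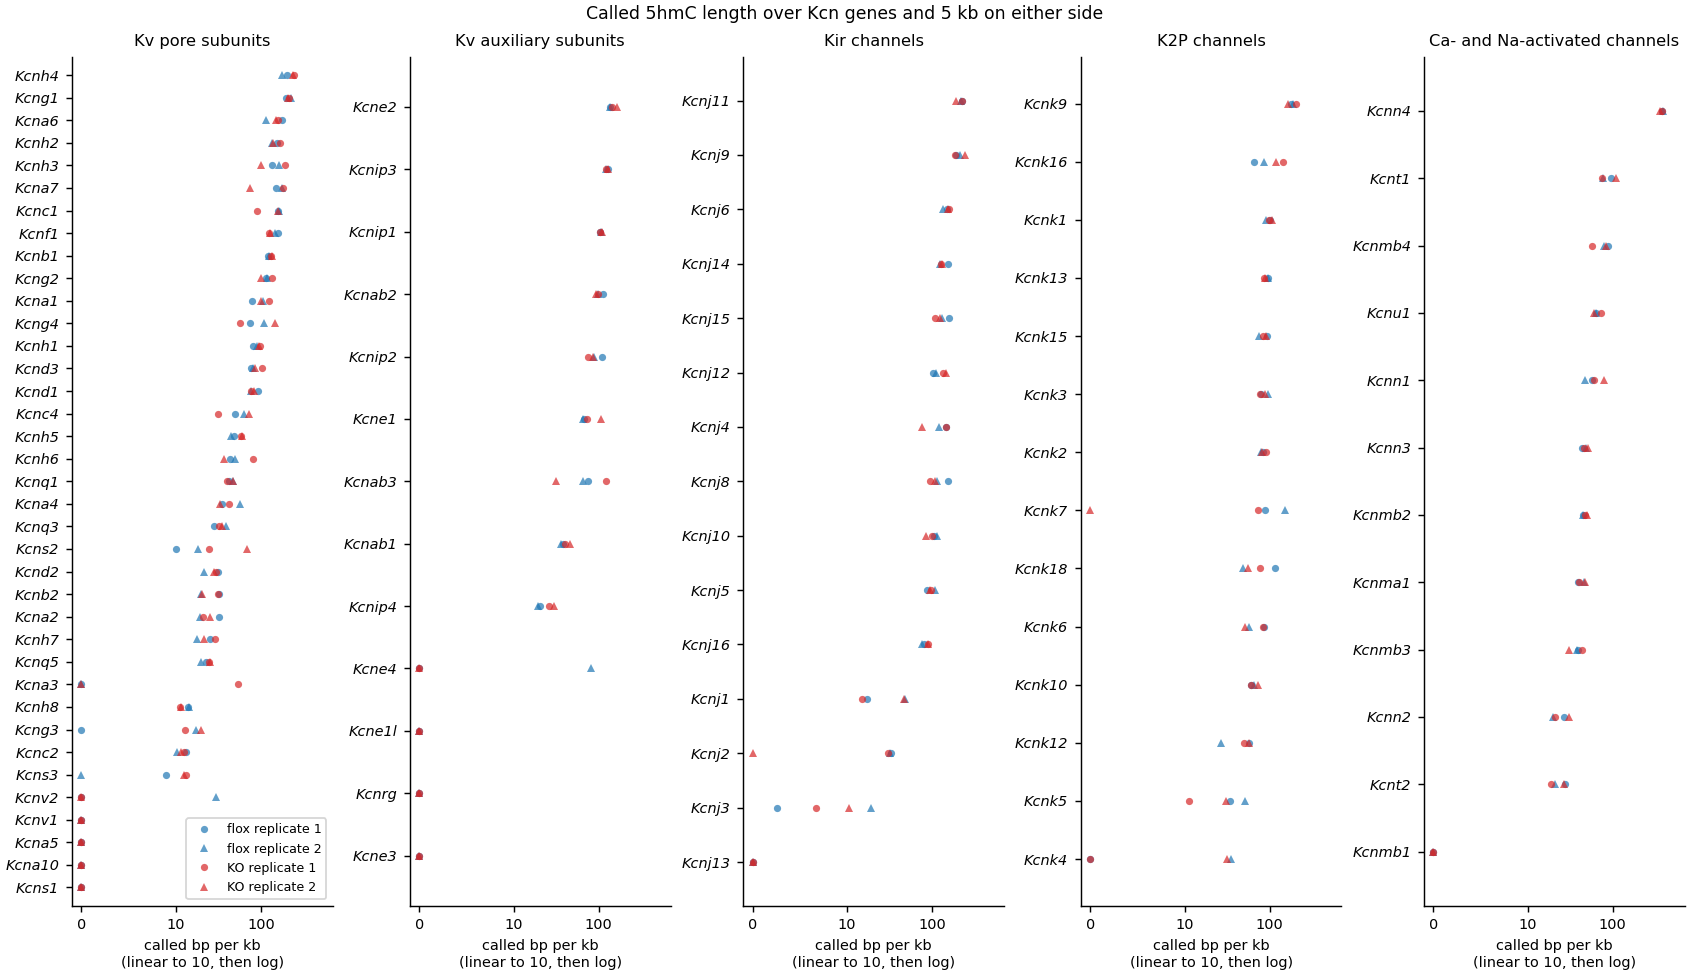
Called bp per kb of interval for 91 of the 94 Kcn genes (rows, by class of channel) in each library (blue, flox; red, KO; circle, replicate 1; triangle, replicate 2), on an axis that is linear to 10 and logarithmic above. Kcnn4 stands highest among the genes drawn, 9 genes stand at 0 in every library, and for most genes the 4 libraries lie close together.

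The pore-forming Kv subunits make the voltage-gated channel itself. Of 40 genes, 36 had a peak and the median was 53.0 called bp per kb. Kv genes dense in 5hmC were Kcng1, a modifier of Kv currents (chromosome 2, 168260117 to 168281533), and Kcna6, a delayed rectifier (chromosome 6, 126708328 to 126740834). Kcng1 had 6232 and 7173 bp in flox, against 6679 and 6555 bp in KO, or 212 bp per kb. Kcna6 had 7525 and 4952 bp in flox, against 6735 and 6379 bp in KO. In both genes the groups overlapped. Kcnh1, an EAG channel (chromosome 1, 192189144 to 192510159), had the most called length of the class, with 26799 and 29486 bp in flox, against 32387 and 31307 bp in KO. The KO libraries were both higher (0.19 on the log2 scale, SE 0.09, limma adjusted p = 0.825). Kcnc2, a fast Kv channel of neurons, had 2679, 2141, 2565 and 2361 bp over an interval of 206 kb (flox replicates 1 and 2, then KO replicates 1 and 2), which is 11.8 bp per kb. A stretch of 102 kb inside Kcnc2, 51.9% of its span, held no called base in any library.

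Auxiliary subunits of Kv channels held both the shortest interval of the 94, Kcne1l, and the longest, Kcnip4. Kcnip1, which encodes a calcium-binding partner of Kv4 channels (chromosome 11, 33629339 to 33993348), had 38170 and 40039 bp in flox, against 38769 and 40941 bp in KO. The groups overlapped. Kcnip4, of the same family (chromosome 5, 48389503 to 49525122), has an interval of 1146 kb and is described with the long genes. Kcnab2, a beta subunit with an aldo-keto reductase fold (chromosome 4, 152390744 to 152477549), had 10810 and 9472 bp in flox, against 9536 and 8930 bp in KO. Of 13 auxiliary genes, 3 had no called base, as did 5009 of all 21883 genes.

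The Kir channels had the highest class median, 118 bp per kb over 15 genes. Kcnj6, which encodes a G protein-gated rectifier (chromosome 16, 94744980 to 94997696), had the most called length of all 94 genes by the mean of the 4 libraries, with Kcnip1 almost level and higher in replicate 2 of both genotypes. Kcnj6 had 39548 and 35739 bp in flox, against 41845 and 40891 bp in KO, so both KO libraries lay above both flox libraries (0.15 on the log2 scale, SE 0.08, limma adjusted p = 0.828). Its 262.7 kb interval carried 150 bp per kb. Kcnj3, whose product joins that of Kcnj6 in the same channels (chromosome 2, 55411798 to 55598145), had 505 and 3723 bp in flox, against 1309 and 2047 bp in KO, or 9.66 bp per kb. The flox libraries of Kcnj3 lay on either side of both KO libraries.

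All 14 K2P leak channel genes had a peak in some library (77.1% of all genes did), with a median of 81.3 bp per kb. Kcnk9, an acid-sensitive leak channel (chromosome 15, 72501873 to 72548614), was the densest with 184 bp per kb, from 10034 and 10760 bp in flox, against 11616 and 9383 bp in KO. Kcnk2, a mechanosensitive leak channel (chromosome 1, 189207930 to 189402782), had the most called length, 17160 and 16370 bp in flox, against 18774 and 16756 bp in KO. In neither gene did the groups separate.

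The class listed as calcium- and sodium-activated channels held 12 genes, with the Kcnmb auxiliary subunits and Kcnu1 among them. Not every member is thus itself a channel opened by calcium or sodium. Kcnma1, the large-conductance channel (chromosome 14, 23292288 to 24005110), had 28380 and 33085 bp in flox, against 29325 and 33702 bp in KO. Replicate 2 was the higher library in both groups. Kcnn4 (chromosome 7, 24369826 to 24385212) had 9518 and 9801 bp in flox, against 9763 and 9013 bp in KO. At 375 bp per kb it ranked 30 among all 21883 genes, and its interval touches no other protein-coding gene. A block upstream of the gene start scored 619.47 and 668.24 in flox, against 528.92 and 547.37 in KO. The groups overlapped at Kcnn4 (-0.03 on the log2 scale, SE 0.14, limma adjusted p = 0.984).

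**Figure D2:**
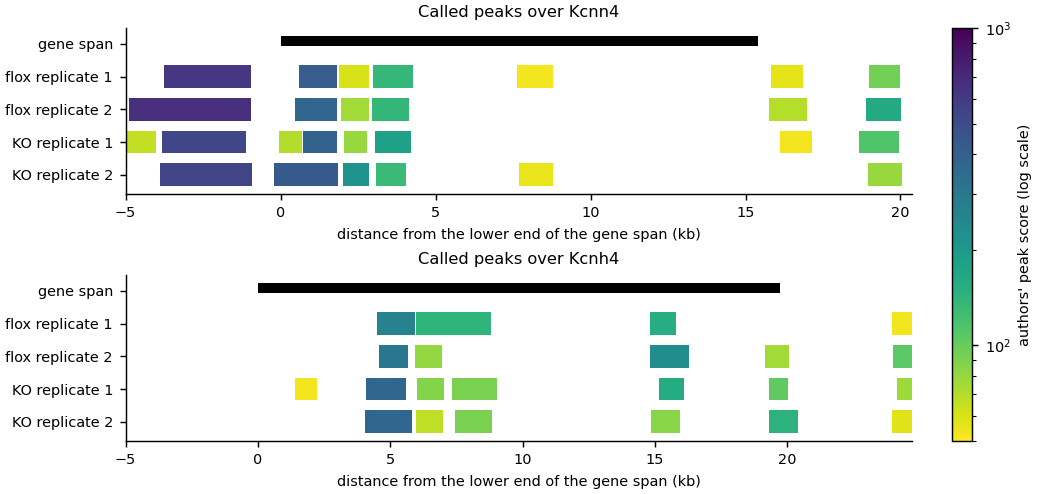
Called peaks over Kcnn4 and Kcnh4 in each library, by distance from the lower end of the gene span in kb, coloured by the score of the authors' caller (log scale). Each gene has high-scored blocks that recur in all 4 libraries, and the start of Kcnn4 is covered in both KO libraries. Kcnh4 has 7 and 6 peaks in KO against 4 and 5 in flox. A flox replicate 1 peak of 2845 bp spans a stretch that is split into separate peaks in both KO libraries. Merged over the libraries, Kcnh4 has 5 regions, 3 of them called in all 4 libraries. Of these regions, 0 were called in both KO libraries and neither flox library.

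The other genes known in blood cells ranged from dense to nearly free of 5hmC. Kcnh2, the hERG channel found in leukaemia cell lines (chromosome 5, 24319589 to 24351684), had 6454 and 5732 bp in flox, against 7081 and 5878 bp in KO, or 149 bp per kb. Kcnk6, a leak channel of macrophages (chromosome 7), had 1764, 1176, 1745 and 1061 bp. Kcnk13, a leak channel of microglia (chromosome 12), had 10544 and 10479 bp in flox, against 9352 and 9633 bp in KO, with the groups apart (-0.13 on the log2 scale, SE 0.13, limma adjusted p = 0.889). Kcna3 (chromosome 3) had 645 bp in KO replicate 1 and no called base in the other libraries. Kcnj2, a rectifier of macrophages and muscle (chromosome 11), had 678, 655, 619 and 0 bp. Of the 8 genes listed as known in blood cells, 6 entered the test. Their log2 difference was negative at 5 and positive at Kcnh2, and none passed it.

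At 9 genes no library had a called base, namely Kcnv1, Kcna10, Kcnmb1, Kcnj13, Kcne3, Kcns1, Kcnrg, Kcna5 and Kcne1l. Their intervals were short, from 11.45 kb at Kcne1l to 29.8 kb at Kcnv1. Over all genes, 5009 of 21883 had no called base. A gene with no peak may still carry 5hmC below the threshold of the caller.

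Around transcription starts, Kcn genes had more bases under peaks than other genes. Starts and strands came from the RefSeq promoter table of GRCm38.p6, which matched 69 of the 94 genes with 94 starts. Neighbouring starts of the same gene, as at Kcnc2 and Kcnk2, can share a peak, which then counts more than once. The shares below were not computed by gene. In the first 500 bp downstream of Kcn starts, 19.7% and 19.9% of bases were called in flox and 19.4% and 17.1% in KO. Over 21262 starts of all protein-coding genes these shares were 6.89% to 7.99%. Between 500 and 1500 bp upstream, the Kcn shares were 5.18%, 5.23%, 4.78% and 4.67%, close to the 5.66% to 6.09% of all starts. From 2 to 5 kb on either side they were 8.44% to 8.83%, against 4.79% to 5.13%.

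**Figure D3:**
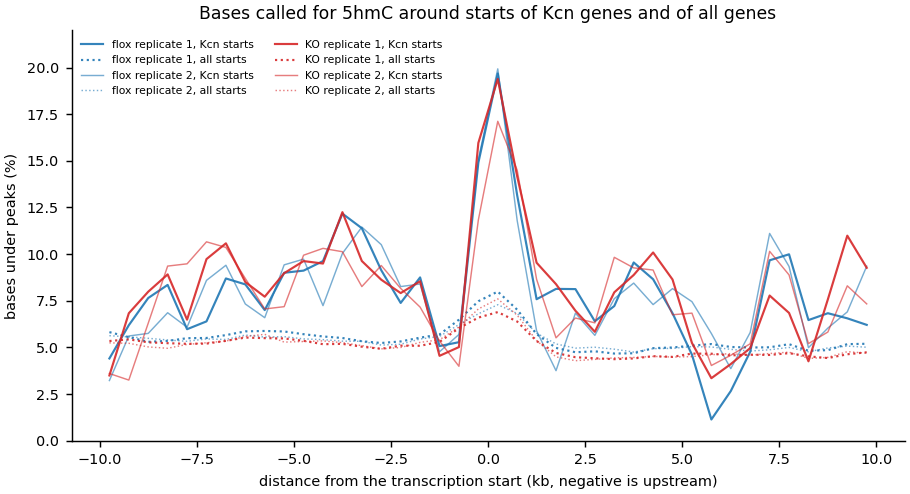
Percent of bases under peaks in 500 bp bins from 10 kb upstream to 10 kb downstream of transcription starts, for 94 starts of Kcn genes (solid) and 21262 starts of all protein-coding genes (dotted), in each library. In the first bin downstream, Kcn starts reach 17.1% to 19.9% and all starts 6.89% to 7.99%. Starts of the same gene are counted separately, so neighbouring starts can share a peak.

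The RefSeq promoter window of 300 bases (250 before to 50 after the start) overlapped a peak in all 4 libraries at 11 of 94 Kcn starts (11.7%), against 5.28% of all starts. Counted by gene these were 8 of 69 Kcn genes (11.6%) against 5.56% of all genes. The 8 genes were Kcnk2, Kcnip3, Kcnd3, Kcnab2, Kcnh2, Kcnc2, Kcnip1 and Kcne2. Restricted to peaks scored 100 or more, the count was 8 of 94 starts. Neighbouring starts of Kcnc2 and of Kcnk2 share their peaks. Among voltage-gated sodium and calcium channel genes, 4 of 30 genes (13.3%) had such a window.

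The called windows differed widely in CpG, the dinucleotide at which most 5-methylcytosine and 5hmC of mammals lie. The next 3 sequences are windows rich in CpG (RefSeq, GRCm38.p6, 5′ to 3′ on the strand of the gene, CpG in capitals). They are Kcnd3 (chr3:105451640-105451939, plus strand, 25 CpG), Kcnh2 (chr5:24329542-24329841, minus strand, 19 CpG) and Kcnk2 (chr1:189343304-189343603, minus strand, 33 CpG).
Kcnd3: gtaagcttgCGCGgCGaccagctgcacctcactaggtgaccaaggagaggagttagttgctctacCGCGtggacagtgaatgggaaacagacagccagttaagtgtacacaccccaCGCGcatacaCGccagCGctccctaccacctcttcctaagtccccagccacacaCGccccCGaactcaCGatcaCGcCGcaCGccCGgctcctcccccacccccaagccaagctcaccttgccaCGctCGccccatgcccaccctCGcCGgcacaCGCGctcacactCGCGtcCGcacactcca
Kcnh2: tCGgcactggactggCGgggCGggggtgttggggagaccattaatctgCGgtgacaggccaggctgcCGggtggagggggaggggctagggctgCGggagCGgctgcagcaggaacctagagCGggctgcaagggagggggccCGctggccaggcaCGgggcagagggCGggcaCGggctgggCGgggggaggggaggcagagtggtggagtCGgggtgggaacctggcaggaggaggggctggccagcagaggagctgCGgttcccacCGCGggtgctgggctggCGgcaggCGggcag
Kcnk2: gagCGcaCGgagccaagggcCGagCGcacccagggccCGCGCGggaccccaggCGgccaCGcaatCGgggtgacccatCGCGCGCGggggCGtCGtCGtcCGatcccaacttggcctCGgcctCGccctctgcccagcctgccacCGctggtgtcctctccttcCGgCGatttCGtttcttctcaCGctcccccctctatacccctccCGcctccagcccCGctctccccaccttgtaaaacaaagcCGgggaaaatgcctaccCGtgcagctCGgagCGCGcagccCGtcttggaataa

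Peaks covered all 300 bases of the Kcnd3 and Kcnh2 windows in every library. At Kcnk2 they covered 300 and 299 bases in flox and 217 and 300 bases in KO. The next windows were covered as fully and are poor in CpG, namely Kcnip3 (chr2:127521343-127521642, minus strand, 4 CpG) and the start of Kcnc2 at chr10:112271023-112271322 (plus strand, 6 CpG).
Kcnip3: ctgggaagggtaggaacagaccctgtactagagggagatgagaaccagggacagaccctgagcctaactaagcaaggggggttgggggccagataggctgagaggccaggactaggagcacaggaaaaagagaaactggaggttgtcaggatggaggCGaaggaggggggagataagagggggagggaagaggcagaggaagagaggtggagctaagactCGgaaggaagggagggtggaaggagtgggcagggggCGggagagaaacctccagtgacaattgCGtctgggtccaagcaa
Kcnc2: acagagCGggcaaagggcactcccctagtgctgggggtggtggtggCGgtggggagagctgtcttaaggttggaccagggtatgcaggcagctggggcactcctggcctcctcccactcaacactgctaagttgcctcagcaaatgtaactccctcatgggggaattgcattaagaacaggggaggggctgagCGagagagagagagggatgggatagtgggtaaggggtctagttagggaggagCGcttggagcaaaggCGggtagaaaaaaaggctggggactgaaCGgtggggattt

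The ratio of observed to expected CpG was 0.923 at Kcnd3, 0.978 at Kcnk2 and 0.555 at Kcnh2, but 0.213 at Kcnip3 and 0.275 at Kcnc2. By class of this ratio, 5 of 43 Kcn windows under 0.4 were called in all 4 libraries (11.6%, against 4.02% of the windows of all genes in that class). From 0.4 to 0.75 these were 2 of 35 (5.71%, against 6.61%), and at 0.75 or more 4 of 16 (against 5.68%). Neighbouring starts of Kcnc2 (under 0.4) and of Kcnk2 (0.75 or more) share peaks and are counted separately in these shares. CpG-rich and CpG-poor starts were thus both among the called ones.

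The window of Kcnn4 differed from these in both peaks and letters. It is shown for the short motif TGTGGT, the core that RUNX1 and so AML1-ETO are known to bind, which is marked in capitals together with its reverse complement ACCACA (chr7:24370013-24370312, plus strand).
Kcnn4: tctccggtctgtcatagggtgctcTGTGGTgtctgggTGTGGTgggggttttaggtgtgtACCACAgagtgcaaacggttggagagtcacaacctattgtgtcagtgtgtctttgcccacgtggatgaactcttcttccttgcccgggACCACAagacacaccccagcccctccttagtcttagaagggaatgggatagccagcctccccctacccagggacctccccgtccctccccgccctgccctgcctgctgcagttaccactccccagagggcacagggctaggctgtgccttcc

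Peaks covered 0 and 15 bases of this window in flox and all 300 in both KO libraries. The KO replicate 1 peak over it had a score of 70.24, near the lower limit of 50, and the KO replicate 2 peak, with a score of 435.29, also spanned the strong block downstream that every library had. The motif occurred 2 times on each strand. At least 4 occurrences were found in 6 of the 21262 windows, and this was the only Kcn window with more than 1. A match of letters is a description and not a binding site. At least 1 occurrence was found in 11 of 94 Kcn windows and in 3183 of all 21262 windows. Kcnn4 was picked for this display with its values in view.

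No potassium channel gene differed in called 5hmC between KO and flox past the test. Limma over 14159 genes with a mean of at least 500 called bp found 0 genes past an adjusted p of 0.05 (0%), in the Kcn set as in the whole table. Of the 94 Kcn genes, 79 entered this test. The other 15 were the 9 without a called base and 6 with little of it (Kcne4, Kcna3, Kcnj2, Kcns2, Kcnk4 and Kcnv2). At an unadjusted p under 0.05 there were 2 Kcn genes higher in KO, Kcnip4 and Kcnh5 (1.84% of all genes were), and 0 lower (4.3% of all genes were).

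Called length summed over Kcn intervals was slightly higher in KO, and that over all intervals slightly lower. Kcn intervals together carried 52.9 and 51.7 called bp per kb in flox and 54.7 and 55.2 in KO, so the genotypes did not overlap. With only the 50000 highest scored peaks of each library they did overlap (mean 27.2, SD 1.29, in flox and 27.7, SD 0.557, in KO). With 2 libraries a group no permutation test of such a sum can pass. All protein-coding intervals together carried 46.5 and 45.3 bp per kb in flox and 44.0 in each KO library. Of the 79 tested Kcn genes, 44 had a positive and 35 a negative log2 difference (median 0.04). Over all tested genes, 54.6% were negative (median -0.04), against 44.3% of Kcn genes. By number of peaks the Kcn median was -0.01, with 38 genes higher and 43 lower. With every gene included, 46 Kcn genes were higher, 39 lower and 9 without a called base.

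After scaling to equal totals, both KO libraries lay above both flox libraries at 18 of 79 Kcn genes (14.6% of all genes tested) and below at 11 (20.7% of all genes tested). By class, Kv pore subunits had 19 genes higher and 14 lower, auxiliary subunits 6 and 3, Kir channels 5 and 8, K2P channels 7 and 6, and calcium- and sodium-activated channels 7 and 4. The class medians ran from -0.06 (Kir) to 0.07 (calcium- and sodium-activated). Among 40 sodium and calcium channel genes, 23 were higher and 17 lower, with a median of 0.03. Of 9 tested HCN and CNG cation channel genes, relatives of the Kv family, 5 were higher and 4 lower. Among 15 tested myeloid progenitor genes, 2 were higher and 13 lower, with a median of -0.44, a direction known from earlier results of these data. The 8 neuron markers had 5 higher and 3 lower (median 0.04), and the 7 tested lymphoid and erythroid markers were all higher (median 0.20). Their part in the Kcn values was not tested.

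Most of the longest potassium channel genes had somewhat more called 5hmC in KO. All 25 Kcn genes with an interval over 100 kb entered the test, and 21 had a positive log2 difference (median 0.09). Of all 2682 tested genes of that length, 1329 (49.6%) did, with a median of -0.004. Both KO libraries lay above both flox libraries at 9 of the 25 and below at 2 (Kcnk13 and Kcnh8). Over all 2682 tested genes of that length these counts were 455 and 531. Called length summed over the 25 genes was 384535 and 375320 bp in flox, against 410201 and 421989 bp in KO. The Kcn genes under 100 kb did not share this. From 20 to 100 kb, 18 were higher and 24 lower (57.1% lower, against 55.7% of all tested genes of that length). Under 20 kb, 5 were higher and 7 lower (58.3% lower, against 55.2%). The length classes were chosen after the data were seen. Restricted to peaks scored 100 or more, 14 of 24 long Kcn genes were positive (48.5% of all long genes were). Without KO replicate 2 there were 16 of 25 (49.4% of all long genes).

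**Figure D4:**
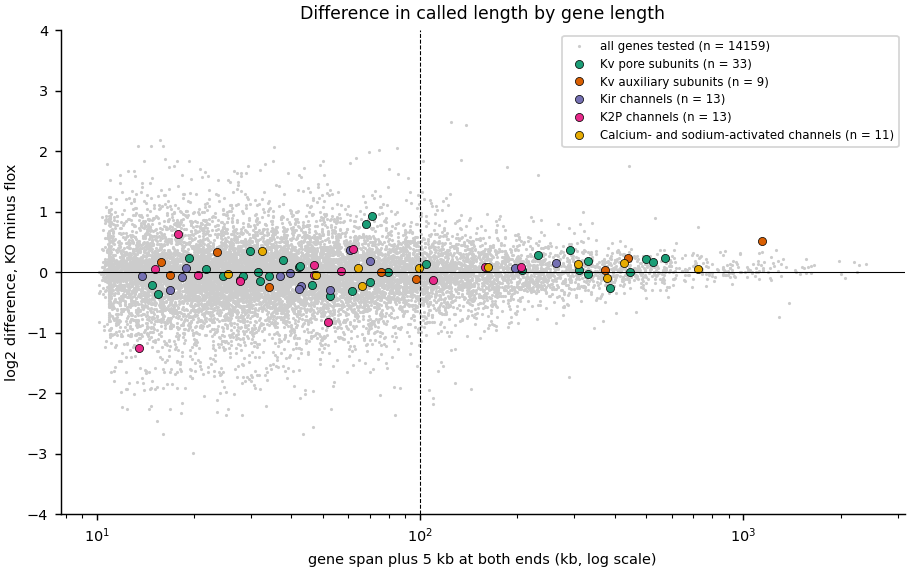
Log2 difference in called length (KO minus flox) against the length of the interval (kb, log scale) for all 14159 tested genes (grey) and the 79 tested Kcn genes (coloured by class), with a dashed line at 100 kb. Right of the line 21 of 25 Kcn genes lie above 0.

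Kcnip4 had the largest difference among the long genes. It had 23042 and 22187 bp in flox, against 30038 and 34334 bp in KO, from 30 and 29 peaks in flox and 38 and 42 in KO. Both KO libraries were well above both flox libraries (0.51 on the log2 scale, SE 0.10, unadjusted p = 0.00251, limma adjusted p = 0.773). Kcnh5, another EAG channel gene (chromosome 12, 74897217 to 75177332), had 13888 and 13031 bp in flox, against 17044 and 17615 bp in KO (0.37, SE 0.11, limma adjusted p = 0.773). Restricted to peaks scored 100 or more, Kcnip4 turned to -0.42 and Kcnh5 stood at 0.05. When each library was cut to its 50000 peaks of highest score, Kcnip4 stood at -0.74 and Kcnh5 at -0.08. At Kcnip4 the higher values of KO were thus carried by peaks scored under 100.

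Kcnd3, a Kv4 pore subunit to which the Kcnip proteins bind (chromosome 3, 105451890 to 105674002), had 17851 and 18549 bp in flox, against 24149 and 20026 bp in KO (0.28 on the log2 scale, SE 0.13). Its value without KO replicate 1 was 0.14. Kcnq5, an M-current channel (chromosome 1, 21398399 to 21962650), had 12828 and 11446 bp in flox, against 13936 and 14554 bp in KO (0.24, SE 0.12). Among shorter genes with a mean of at least 2000 called bp, the largest differences with both KO libraries above flox were at Kcnj12, a strong rectifier (chromosome 11), with 6201 and 6797 bp against 8112 and 8819 bp, and Kcnh4 (chromosome 11), an ELK channel, with 6021 and 5257 bp against 7321 and 7142 bp. Limma adjusted p was 0.824 to 0.826 for these 4 genes, so none passed. Without peaks scored under 100, Kcnd3 turned to -0.08 and Kcnh4 to -0.43, and Kcnj12 stood at 0.08 in place of 0.37. Kcnq5 then stood at 0.23 with a wider SE of 0.33. By number of peaks Kcnq5 stood at 0.075, Kcnd3 at 0.17, Kcnj12 at 0.43 and Kcnh4 at 0.48. Larger differences were found at genes with less called length. Kcnk16, a leak channel of the pancreas, had 1171 and 1550 bp in flox, against 2582 and 2121 bp in KO (0.63 on the log2 scale, SE 0.28, limma adjusted p = 0.824). Kcns3, a modifier of Kv currents, had 632 and 0 bp in flox, against 943 and 890 bp in KO (0.93, SE 0.65, limma adjusted p = 0.865). Both were picked after their values were seen.

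**Figure D5:**
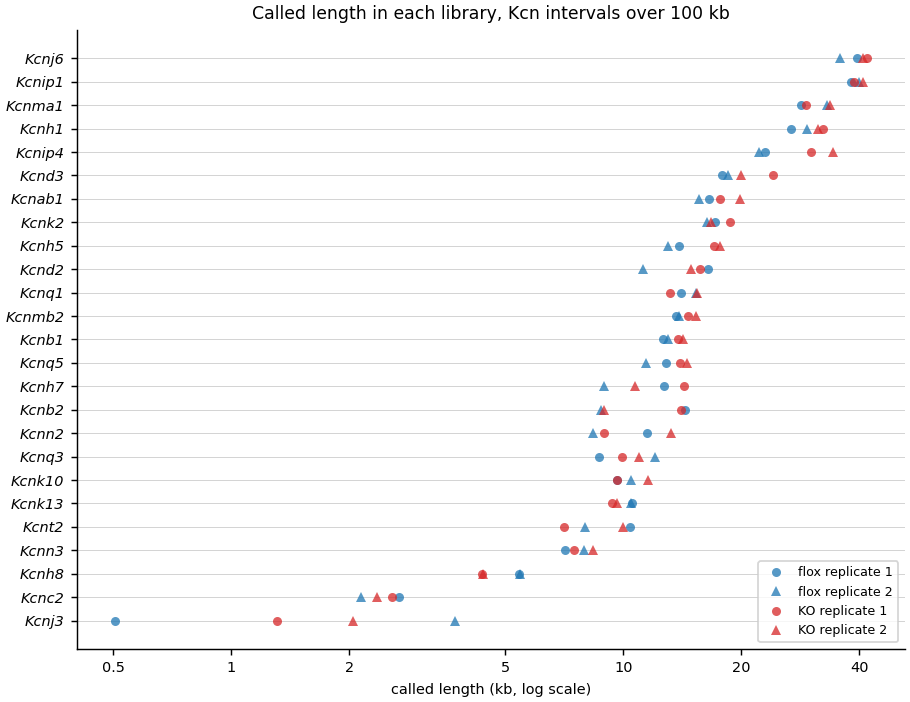
Called length (kb, log scale) in each library for the 25 Kcn genes with an interval over 100 kb, ordered by mean. The red KO points lie right of the blue flox points at 9 genes, Kcnip4 and Kcnh5 among them, and left of them at Kcnk13 and Kcnh8.

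Among genes with a mean of at least 2000 called bp, 5 with both KO libraries below both flox libraries are given here. Kcnj15, a rectifier of epithelia (chromosome 16, 95257558 to 95300260), had 8328 and 6924 bp in flox, against 5692 and 6464 bp in KO (-0.29 on the log2 scale, SE 0.17). Kcnh8, an ELK channel gene (chromosome 17, 52602709 to 52979194), had 5421 and 5445 bp in flox, against 4362 and 4399 bp in KO (-0.27, SE 0.17). Within each genotype the summed lengths of the 2 libraries of Kcnh8 were nearly equal, but the peaks behind them agreed less. Each library had 7 peaks, and by number of peaks the log2 difference was -0.007. Merging overlapping peaks of the libraries gave 16 regions at Kcnh8, of which 2 were called in all 4 libraries and 10 in 1 library. None was called in both flox libraries and neither KO library. Kcnip2, a Kv4 partner of the heart (chromosome 19), had 3711 and 3023 bp against 2541 and 2932 bp. Kcnj10, a glial rectifier (chromosome 1), had 4574 and 4905 bp against 4311 and 3619 bp. Kcnf1, a modifier of Kv currents (chromosome 12), had 2361 and 2185 bp against 1840 and 1882 bp. Limma adjusted p was 0.844 to 0.893 over these 5 genes, and Kcnh8 and Kcnf1 turned positive when peaks scored under 100 were dropped. Kcnj15 then stood at -0.09, and without flox replicate 1 at -0.18. Without flox replicate 1 Kcnip2 stood at -0.13, and without KO replicate 1 at -0.16. Kcnj10 stood at -0.11 without KO replicate 2.

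Kcnk5, a leak channel of T cells and kidney (chromosome 14, 20140057 to 20181782), had less called length than these 5 genes and a larger step. It had 1772 and 2657 bp in flox, against 589 and 1567 bp in KO (-0.83 on the log2 scale, SE 0.41, limma adjusted p = 0.826). Each library had 1 to 3 peaks there. Kcnk7, another K2P gene, picked after its values were seen, had 1198 and 2037 bp in flox, against 996 and 0 bp in KO (-1.25, SE 0.62, limma adjusted p = 0.824). A region at chr14:20148656-20150076 inside Kcnk5 was called in both flox libraries, with scores of 77.84 and 109.16, and in neither KO library.

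Regions called in 1 genotype alone were few at potassium channel genes and about as frequent as elsewhere. Merging overlapping peaks of the 4 lists gave 938 regions in Kcn intervals. Of these, 381 (40.6%) were called in all 4 libraries, against 40.5% over all protein-coding intervals. There were 22 regions (2.35%, against 3.21%) called in both flox libraries and neither KO library (flox-only), and 29 (3.09%, against 2.74%) with the reverse pattern (KO-only). A flox-only region was found in 17 of 94 Kcn genes (18.1%, against 10.8% of all genes) and a KO-only region in 16 (17.0%, against 8.71%), and 10 genes had both kinds. Kcn intervals are longer than those of genes in general, as given above. No share matched for length was computed, so the part of length in these shares was not tested.

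Kcnip4 held 6 KO-only regions and 1 flox-only region, and Kcnj6 held 4 KO-only regions and no flox-only region. The widest was 1904 bp long inside Kcnip4 (chr5:49129756-49131659), with 1904 and 1529 bp called and scores of 93.29 and 94.82 in the KO libraries. The scores of the other 5 KO-only regions of Kcnip4 ran from 52.26 to 98.79. Right after this widest region, 83.6 kb of the Kcnip4 span held no called base in any library. Kcnma1 had 3 KO-only and 2 flox-only regions, Kcnip1 2 and 3, Kcnq5 2 and 2, Kcnh1 2 and 1, and Kcnq1 1 and 2. Others with such a region inside the span had 1 of each kind (Kcnab1, Kcnq3 and Kcnu1), 1 KO-only region (Kcnd2, Kcnd3, Kcnk3 and Kcnmb2) or 1 flox-only region (Kcnh7, Kcnip2, Kcnk2, Kcnk5, Kcnk13 and Kcnt2).

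At 2 genes the region lay in the 5 kb beside the span, a KO-only region at Kcnj11 and a flox-only region at Kcnmb4. The highest score among flox-only regions was 151.68, in the Kcnk13 region at chr12:99978187-99978634, and that among KO-only regions was 140.88, in the Kcnq5 region at chr1:21474874-21475741. Regions of 1 genotype have no test of their own with 2 libraries a group.

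Kcnq1, a heart channel gene whose span lies in an imprinted domain (chromosome 7, 143106877 to 143427050), had 14063 and 15356 bp in flox, against 13188 and 15431 bp in KO. The groups overlapped (-0.03 on the log2 scale, SE 0.13, limma adjusted p = 0.982). A stretch of 59.4 kb inside it held no called base in any library.

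Summed over the long genes, no part of the span was free of 5hmC, although single genes had long free stretches such as those of Kcnc2 and Kcnip4. For 20 Kcn genes over 100 kb with a known strand, divided into 5 equal segments from the 5′ end, the first segment carried 39.9 and 40.2 called bp per kb in flox, against 45.6 and 45.9 in KO. The last segment carried 50.1 and 42.9 in flox, against 45.0 and 49.7 in KO. In segments 1 to 4 the KO libraries were both above the flox libraries, and in segment 5 they were not. Over 2121 genes of that length, the libraries ran from 44.9 to 46.7 bp per kb in the first segment and from 38.2 to 39.5 in the last. Summed over the Kcn genes, the 5 kb on either side carried 76.3, 70.4, 74.8 and 69.3 bp per kb, against 50.1 to 53.9 within the spans. For all genes these ranges were 48.5 to 51.9 beside and 43.0 to 45.4 within the spans. In such sums a long gene weighs more within the spans than beside them. Kcn intervals over 100 kb carried 41.1 to 46.2 bp per kb, and those of 20 to 100 kb carried 89.9 to 94.5. The sums therefore do not compare a gene with its own flanks.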

How the data were processed

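Per the submitters' processing notes, the tools included CASAVA 1.8, Bowtie and MACS 1.4, and the builds GRCm38 and mm10. Caller settings and the control library are not stated there. The authors deposited 1 peak list per library, with start and end in bp, a score and a p-value for each peak. The authors' score and p-value were used only to describe or filter peaks.

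Called length per gene (span plus 5 kb at both ends, RefSeq, GRCm38) was scaled to equal totals. KO was compared with flox on log2(bp + 500) by limma 3.58.1 in R 4.3.3, with trended and robust variances, wherever the mean reached 500 bp. P-values were adjusted by Benjamini-Hochberg over all genes. The pseudocount understates changes of genes with little called length. The script was tested on simulated data. Regions were merged at 1 bp of overlap. Coordinates count from 1. Python 3.11.15 and pandas 2.3.3 were used.

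Groups came from sample titles. The Kcn set and the gene lists were chosen with earlier results of these data known. The text names genes with separated groups and a mean of at least 2000 bp (up to 6 per direction), the 6 with most called length, the 6 densest whose interval touches no other gene, those with a region of 1 genotype, those with no called base, the one with most called length in each class, and those known in blood cells. A few genes are not reported here. Kcnc2, Kcnj3, Kcnn4 as a window and the other windows printed were picked after their values were seen.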

Additional observations from a re-analysis of the deposited data

How the results depend on the processing

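Depth was unknown, and with 2 libraries a group only large differences could pass. The median log2 difference of Kcn genes (0.04) was 0.067 with peaks scored 100 or more, 0.056 over gene spans alone, 0.013 with 10 kb at both ends, -0.006 by number of peaks, 0.019 with a pseudocount of 2000 bp, 0.026 without scaling and 0 without a filter, and 0.021 to 0.047 without each library in turn. The cause was not tested. Limma passed 0 genes in every setting but 1. Without a filter it passed 26, none of them Kcn genes, where 5009 genes without called bases enter the fit. Peaks of a score of at least 100 left 8 flox-only and 13 KO-only regions and 28.7 called bp per kb in flox and 29.5 in KO. With the 50000 highest scored peaks these densities were 27.2 and 27.7, and over gene spans 50.4 and 53.4. The long Kcn genes higher in KO were 16 to 21 of 25 without each library in turn (46.5% to 49.6% of all long genes). With limits of 50 and 200 kb they were 31 of 42 and 17 of 20. Promoter windows called in the remaining 3 libraries were 11 to 16. Counted once per gene they were 8. The alternatives for long genes and promoter windows were chosen after seeing the data.

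Signs turned with peaks scored 100 or more for Kcnh8 (0.44), Kcnf1 (0.074), Kcnip4 (-0.42), Kcnh4 (-0.43) and Kcnd3 (-0.076). With the 50000 highest scored peaks they turned for Kcnh8 (1.29), Kcnf1 (0.10), Kcnip4 (-0.74), Kcnh5 (-0.077), Kcnh4 (-0.39) and Kcnd3 (-0.09), and by number of peaks for Kcnj10 (0.029). With the replicate block limma again passed 0 genes and the Kcn median was 0.04. Same-numbered libraries did not deviate together in called length (r = 0.007 over 14159 genes). This value cannot show whether same-numbered samples were paired by culture or animal.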
